A study of Mus musculus with 6 samples.

Results

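Hearts of mice given rivaroxaban were compared with hearts of mice given dabigatran, using 4 of the 6 RNA-seq libraries of the study and all 12981 of 16229 listed genes whose mean level over the 6 libraries was at least 0 log2 CPM (log2 of CPM, the read count scaled to library size). The libraries and the level were the only criteria, so no gene was chosen by the size of its difference. All libraries came from hearts of wild-type male C57BL/6 mice aged 8 to 10 weeks. Rivaroxaban was given at 3 mg/kg (libraries 14 and 15) and dabigatran at 10 mg/kg (libraries 10 and 12), each for 7 days, and the untreated group (libraries 8 and 9) received neither drug as far as the labels say. The doses differ, so each difference is between these drug and dose pairs. The labels describe the tissue as infarcted myocardium with its surroundings, without saying when or in which groups an infarct was made, and they do not say whether the 2 libraries of a group came from separate mice. P-values then measure the spread between these libraries, which may be technical.

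Rivaroxaban blocks the active site of factor Xa, the protease that turns prothrombin into thrombin, and dabigatran blocks the active site of thrombin itself. Thrombin cuts fibrinogen and signals to cells by cleaving protease-activated receptors, chiefly PAR1 (gene F2r) and PAR4 (F2rl3), and factor Xa can cleave PAR1 and PAR2 (F2rl1). Through these receptors both proteases are known to act on endothelium, fibroblasts and platelets as well as on clotting, which is the background to setting an inhibitor of one beside an inhibitor of the other.

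The libraries held between 27176892 and 43798222 reads in listed genes, with a median of 594 to 975 reads per tested gene. Cardiomyocyte transcripts were abundant in every library: Myh6, the main adult ventricular myosin heavy chain of the mouse, lay between 15.18 and 15.25 log2 CPM, and the 5 tested cardiomyocyte markers differed between the drugs by -0.10 to -0.03. Some transcripts that mark inflammatory cells of an early infarct were low and under the level for testing. Over the 6 libraries Spp1 was at -1.70 to -0.53, S100a8 at -1.43 to -0.72 and Il1b at -1.63 to -0.46 log2 CPM. Other markers reached that level, with Lcn2 at 1.15 to 2.38 and Mmp9 at 1.06 to 2.21 log2 CPM. Of the listed markers, 3 of 10 for neutrophils and 21 of 22 for macrophages were tested. Dabigatran library 10 was farthest out on the first principal component of the 4 drug libraries (45.3% of their variance). It scored -15.6, against -1.39 for dabigatran library 12, 5.06 for rivaroxaban library 15 and 11.9 for rivaroxaban library 14. Rivaroxaban library 15 was farthest out on the second component (28.8%, score -12.8) and dabigatran library 12 on the third (26.0%, score -10.7). The root mean square difference over all tested genes was 0.209 log2 between the dabigatran libraries and 0.201 between the rivaroxaban libraries. Dabigatran library 12 was 0.206 and 0.203 from the rivaroxaban libraries, which is no farther than it was from its own partner.

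Few genes differed between the drugs. Of 12981 genes, 10 passed the threshold of an adjusted p under 0.05 (0.077%), and all 10 were lower with rivaroxaban than with dabigatran. They included the retinoic acid hydroxylase Cyp26b1, the chemokine Cxcl14, the metabolic enzyme Fah, the ligand Bmp6, the actin regulator Abi1, the sodium channel gene Scn4a, Ccdc171, and the zinc finger genes Zfp970 and Zfp972. None was called higher with rivaroxaban by limma, where the lowest adjusted p was 0.069, while 522 genes higher with rivaroxaban (4.02%) and 572 lower (4.41%) had an unadjusted p under 0.05. The same limma model on the recovered reads with voom weights called 8 genes, none of them higher. A robust prior gave 13, with 1 of them higher. The count moved strongly with single libraries: it was 0 without dabigatran 10, 0 without rivaroxaban 14, 0 without rivaroxaban 15, 20 without dabigatran 12, 6 without untreated 8 and 6 without untreated 9. In the same fit 319 genes (2.46%) differed between rivaroxaban and untreated hearts and 244 (1.88%) between dabigatran and untreated hearts. Those 2 comparisons share the untreated libraries.

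**Figure D1:**
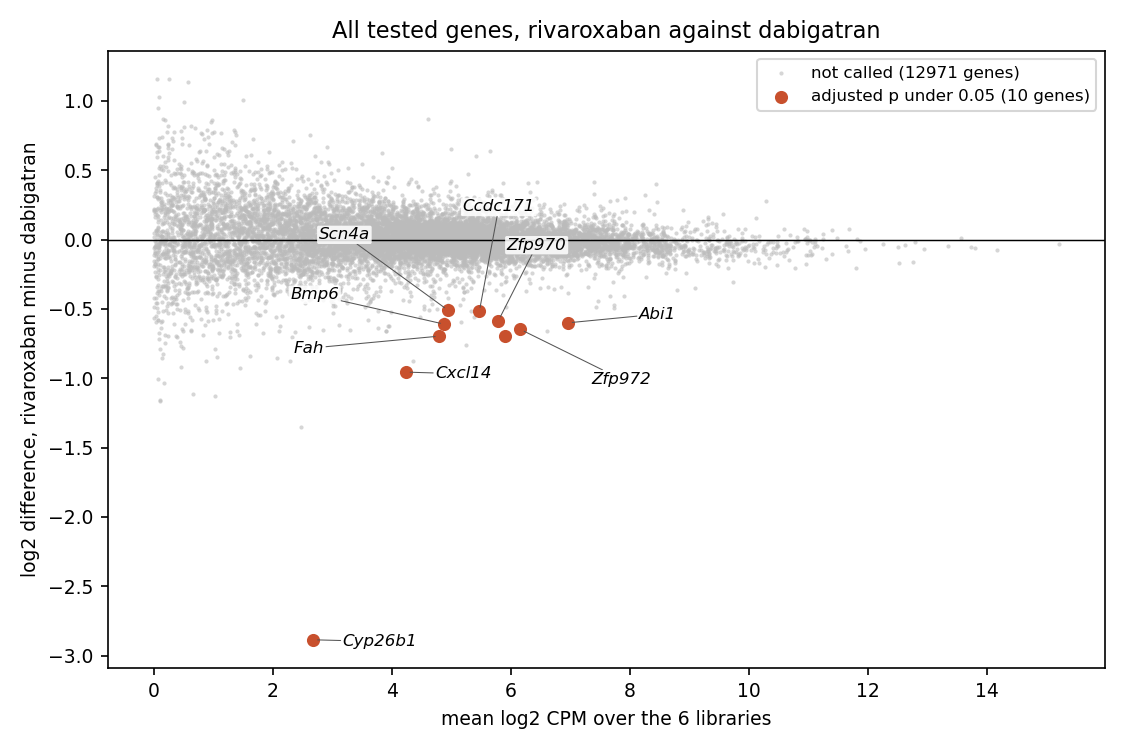
Each point is 1 of 12981 tested genes, with its mean log2 CPM over the 6 libraries on the x axis and the log2 difference of the group means, rivaroxaban minus dabigatran, on the y axis; the 10 genes with an adjusted p under 0.05 are in red, 9 of them with their names. All 10 lie under 0, from -0.51 for Scn4a to -2.89 for Cyp26b1, and the cloud narrows with rising level.

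The 95% intervals given here are for single genes between these libraries and are not adjusted over all genes. Being called needed a difference well beyond the reach of such an interval, and the smallest called was -0.51 for Scn4a. If the 2 libraries of a group are not separate mice, the intervals do not measure the spread between mice. The 95% interval of a gene's difference reached a median of 0.197 log2 to either side of the estimate. For 12650 genes (97.5%) the whole interval lay within 1 log2 unit of equality, and for 10252 genes (79.0%) within 0.5. The median difference over all tested genes was 0.0011, the median size was 0.0761 and 95% of genes differed by less than 0.347. Only 13 genes differed by 1 log2 unit or more, 8 lower and 5 higher with rivaroxaban, and 12 of these were not called.

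Cyp26b1 (ENSMUSG00000063415, chr6:84571414-84593908, minus strand) had the largest difference of any tested gene. It encodes a cytochrome P450 that breaks down retinoic acid and so limits retinoid signalling in a tissue. Its level was 1.10 and 0.62 log2 CPM in rivaroxaban libraries 14 and 15, 3.76 and 3.73 in dabigatran libraries 10 and 12, and 2.57 and 4.32 in untreated libraries 8 and 9. Both rivaroxaban libraries lay under all 4 others, and the untreated libraries lay on either side of the dabigatran pair. The group means were 0.86 ± 0.35 (SD, n = 2) with rivaroxaban and 3.75 ± 0.02 (SD, n = 2) with dabigatran, a 7.39-fold higher level with dabigatran (log2 difference -2.89, SE 0.41, adjusted p = 0.0417). The values rest on 76 and 43 reads with rivaroxaban and on 362 and 576 with dabigatran. Against untreated hearts the gene was lower with rivaroxaban (-2.58, adjusted p = 0.00878) and differed by 0.30 with dabigatran (adjusted p = 0.787). In bulk tissue, fewer cells of a type and less RNA per cell cannot be told apart, here and for every gene named.

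Other genes of retinoid handling mostly had small negative differences. Of 12 tested members of that list, Cyp26b1 included, 9 were lower with rivaroxaban. Of these, 4 had an unadjusted p under 0.05, against 4.41% of all tested genes. After adjustment 1 passed, Cyp26b1, against 0.077% of all tested genes. With Cyp26b1 included, the list median was -0.15 against 0.0011 for all tested genes. The list median was -0.07 without rivaroxaban 15 and -0.10 without dabigatran 10. Dhrs3, which reduces retinaldehyde to retinol, was at 6.46 and 6.55 log2 CPM with rivaroxaban and 6.91 and 6.79 with dabigatran (difference -0.34, adjusted p = 0.103). Its untreated values of 6.54 and 6.51 overlapped those with rivaroxaban. The receptors Rarg and Rarb differed by -0.38 and -0.22, and the synthesizing enzyme Aldh1a2 by -0.06.

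Fah (ENSMUSG00000030630, chr7:84585159-84606722, minus strand) encodes fumarylacetoacetate hydrolase, the last enzyme of tyrosine breakdown. Its levels were 4.51 and 4.36 log2 CPM with rivaroxaban, 5.25 and 5.01 with dabigatran, and 4.87 and 4.80 without drug. The untreated pair lay between the drug groups, with no overlap among the 3. The drugs differed by -0.70 (SE 0.09, adjusted p = 0.0417), and neither drug passed the threshold against untreated hearts (-0.40, adjusted p = 0.0525, with rivaroxaban; 0.30, adjusted p = 0.155, with dabigatran). The 20 tested genes of insulin signalling and glucose uptake had a median difference of -0.01. None had an unadjusted p under 0.05, against 4.02% of all tested genes higher and 4.41% lower.

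Cxcl14 and Bmp6, both on chromosome 13, encode secreted signals. Cxcl14 (ENSMUSG00000021508, chr13:56288643-56296551, minus strand) is a chemokine of epithelia and stroma. It was at 3.67 and 3.68 log2 CPM with rivaroxaban, 4.71 and 4.55 with dabigatran and 4.15 and 4.67 in untreated hearts, so that both rivaroxaban libraries lay under the other 4 while dabigatran and untreated values overlapped. The level with dabigatran was 1.94 times that with rivaroxaban (log2 difference -0.96, SE 0.14, adjusted p = 0.0447). Against untreated hearts Cxcl14 fell by 0.74 with rivaroxaban (adjusted p = 0.0226) and differed by 0.22 with dabigatran (adjusted p = 0.525). Bmp6 (ENSMUSG00000039004, chr13:38345107-38500302, plus strand) is a bone morphogenetic protein best known for driving hepcidin in the liver. Its values of 4.50 and 4.66 with rivaroxaban lay under the untreated values of 4.80 and 4.95, and those under the dabigatran values of 5.18 and 5.21. The drugs differed by -0.61 (SE 0.08, adjusted p = 0.0417), and the differences from untreated were -0.29 and 0.32, neither past the threshold (adjusted p = 0.0974 and 0.0923). The protein-coding gene Txndc5 overlaps Bmp6 on the opposite strand, and its part in the Bmp6 values was not tested.

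Id1, a classic transcriptional target of BMP receptors, had the opposite sign. It was at 6.22 and 6.21 log2 CPM with rivaroxaban, 5.90 and 5.89 with dabigatran, and 5.39 and 5.44 in untreated hearts. The 3 groups did not overlap. The difference of 0.32 between the drugs did not pass the threshold (adjusted p = 0.103), while Id1 rose with each drug against untreated hearts, by 0.80 with rivaroxaban (adjusted p = 9.1e-05) and by 0.48 with dabigatran (adjusted p = 0.0028). Over the 24 tested genes of TGF-beta, BMP and Wnt signalling the median difference was 0.06, with 17 higher and 7 lower. Of these 24, 1 was called, Bmp6, against 0.077% of all tested genes. At an unadjusted p under 0.05, 3 were higher and 1 lower, against 4.02% and 4.41% of all tested genes.

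Abi1 (ENSMUSG00000058835, chr2:22940073-23040241, minus strand) had the smallest p-value. It encodes a subunit of the WAVE complex, which activates branched actin assembly at the cell edge. The levels were 6.55 and 6.60 log2 CPM with rivaroxaban, 7.23 and 7.11 with dabigatran and 7.18 and 7.09 in untreated hearts. Rivaroxaban lay apart from the 2 other groups, which overlapped (drug difference -0.60, SE 0.06, adjusted p = 0.0147; against untreated, -0.56 with rivaroxaban, adjusted p = 0.00103, and 0.04 with dabigatran, adjusted p = 0.825). Abi1 was also the call that recurred most often, in 11 of 15 alternative analyses. Pdss1, which overlaps Abi1 on the opposite strand, differed by -0.10 (adjusted p = 0.806).

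Ccdc171 (ENSMUSG00000052407, chr4:83525545-83864670, plus strand), a coiled-coil gene, was also lowest with rivaroxaban. It was at 4.98 and 5.14 log2 CPM with rivaroxaban, 5.56 and 5.60 with dabigatran, and 5.74 and 5.79 in untreated hearts. Both drug groups lay under the untreated one, with only rivaroxaban past the threshold (-0.70, adjusted p = 0.00079; dabigatran -0.19, adjusted p = 0.249), and the drugs differed by -0.52 (SE 0.07, adjusted p = 0.0417). Scn4a (ENSMUSG00000001027, chr11:106318592-106353288, minus strand) encodes the voltage-gated sodium channel of skeletal muscle. Its values of 4.67 and 4.75 with rivaroxaban lay under 4.95 and 4.86 in untreated hearts, and those under 5.17 and 5.26 with dabigatran. The drug difference was -0.51 (SE 0.07, adjusted p = 0.0445), and neither drug passed the threshold against untreated hearts.

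**Figure D2:**
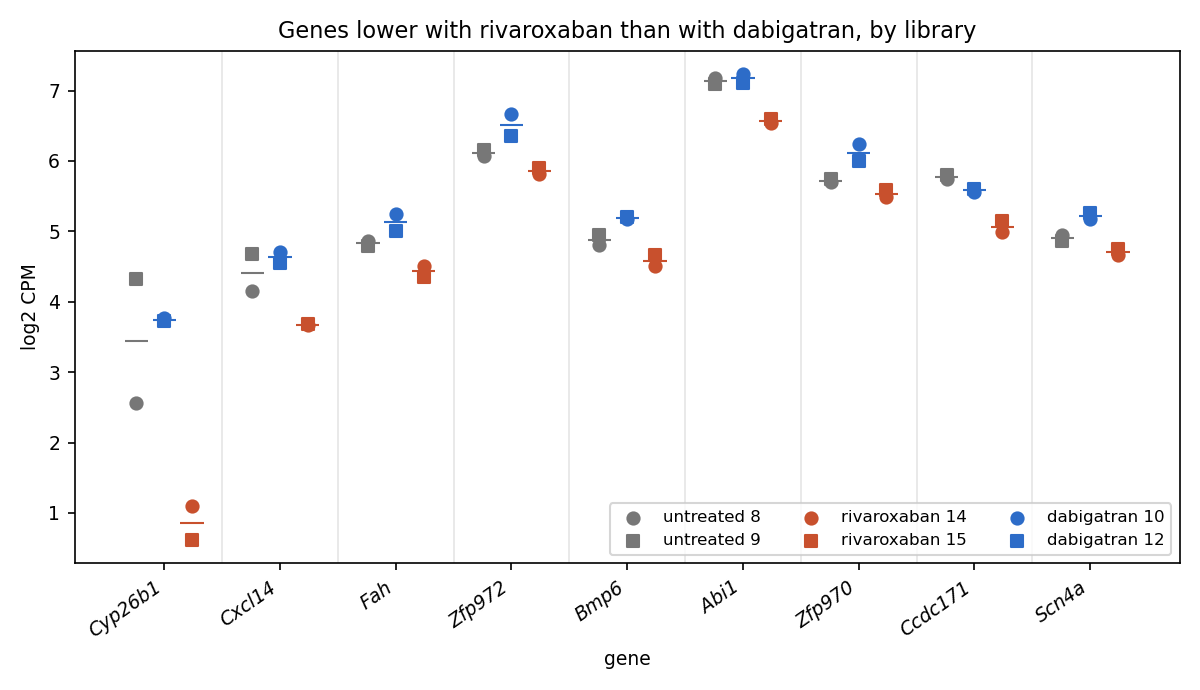
Points are log2 CPM values of single libraries (y axis) for 9 genes with an adjusted p under 0.05 (x axis, ordered by difference), coloured by group, and short lines are the means of 2 libraries. For every gene both rivaroxaban points lie under both dabigatran points, and the untreated points lie near dabigatran for Abi1 and between the drugs for Fah.

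Zfp970 and Zfp972 belong to a large family of zinc finger genes, many of which encode DNA-binding repressors. Both lie in a cluster of related genes near the distal end of mouse chromosome 2. Zfp970 (ENSMUSG00000078866, chr2:177464733-177478129, plus strand) was at 5.48 and 5.59 log2 CPM with rivaroxaban, 6.24 and 6.00 with dabigatran and 5.70 and 5.74 in untreated hearts (drug difference -0.58, SE 0.08, adjusted p = 0.0417). Zfp972 (ENSMUSG00000074529, chr2:177903340-177925613, minus strand) was at 5.82 and 5.90, 6.66 and 6.35, and 6.07 and 6.15 in the same order (-0.65, SE 0.09, adjusted p = 0.0417). In both genes the untreated libraries lay between the drug groups, and dabigatran library 10 was the highest of the 6. Against untreated hearts Zfp970 rose by 0.40 with dabigatran (adjusted p = 0.0369), and the same difference of 0.40 for Zfp972 did not pass (adjusted p = 0.0532).

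The start regions of the pair are shown because these genes differed together and resemble each other. The sequences run from 250 bases before to 50 after the annotated start, 5′ to 3′ on the gene's own strand, from RefSeq on build GRCm38.p6 (Zfp970 chr2:177464492-177464791, plus strand; Zfp972 chr2:177925601-177925900, minus strand). Capitals mark runs of at least 8 bases that an alignment of the pair found identical.
Zfp970: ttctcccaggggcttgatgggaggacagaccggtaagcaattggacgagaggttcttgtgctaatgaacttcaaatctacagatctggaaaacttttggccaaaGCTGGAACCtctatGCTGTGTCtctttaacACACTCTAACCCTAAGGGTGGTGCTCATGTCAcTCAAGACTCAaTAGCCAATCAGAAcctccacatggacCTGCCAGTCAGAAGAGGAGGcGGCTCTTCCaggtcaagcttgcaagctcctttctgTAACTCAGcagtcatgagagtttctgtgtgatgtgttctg
Zfp972: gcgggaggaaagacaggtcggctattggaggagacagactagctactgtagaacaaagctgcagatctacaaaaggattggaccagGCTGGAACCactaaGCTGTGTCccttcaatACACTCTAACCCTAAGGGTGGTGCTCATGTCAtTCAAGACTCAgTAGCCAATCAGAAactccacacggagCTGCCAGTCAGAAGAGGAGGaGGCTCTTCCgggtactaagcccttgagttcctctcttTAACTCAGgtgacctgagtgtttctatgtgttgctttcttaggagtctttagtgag
The windows were 71.6% identical over the alignment, and 109 of the 300 bases fell in such runs. The stretch of each window farthest upstream of the start holds no capitals. The Zfp970 window was 96.1% identical to that of Zfp966, which in turn was the same as that of Zfp967 at all 300 bases.

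Neighbouring genes of the cluster were then read out over chr2:175010241-178078476, a span chosen after the values were seen and therefore given as a description only. Of 39 tested genes there, 25 were lower with rivaroxaban, with a median difference of -0.06. The 10 tested genes with a Zfp name were all lower, with a median of -0.41, and the median was -0.19 for rivaroxaban minus untreated and 0.21 for dabigatran minus untreated. Zfp965 differed by -0.44, Zfp966 by -0.42, Zfp967 by -0.39, Zfp968 by -0.40 and Zfp969 by -0.41, while Zfp931 at the far end differed by -0.06. These are not 10 independent observations. Of all stretches of 50 bases in its transcripts, Zfp970 shares 49.5% with other genes and Zfp972 55.7%, and the share reached 100% for Zfp967 and Zfp969, so reads may be split or shared among the copies and the values of each gene are uncertain. The other 8 called genes share at most 0.394% of such stretches. Gm14327, which overlaps Zfp972 on the opposite strand, differed by -0.51 (adjusted p = 0.575).

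The 10 differences kept their sign in all 15 alternative analyses. In each gene both rivaroxaban libraries lay under both dabigatran libraries, so leaving out 1 library could not change a sign. Leaving out 1 library moved Cyp26b1 between -3.13 and -2.64, Abi1 between -0.66 and -0.54 and Zfp972 between -0.80 and -0.49. Passing the threshold was less stable, with Bmp6 called in 9 of 15 alternatives, Cyp26b1, Fah, Zfp970 and Zfp972 in 7, and Cxcl14, Ccdc171 and Scn4a in 6.

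Just beyond the threshold on the lower side stood Slc7a15, an amino acid transporter gene, and Inmt, which encodes an amine N-methyltransferase. Slc7a15 was at 4.12 and 4.15 log2 CPM with rivaroxaban and 4.67 and 4.72 with dabigatran (-0.56, adjusted p = 0.0576). Inmt was at 3.68 and 3.74 with rivaroxaban, 4.81 and 4.35 with dabigatran and 4.63 and 4.89 in untreated hearts (-0.87, adjusted p = 0.0661), and it fell by 1.05 with rivaroxaban against untreated hearts (adjusted p = 0.00303). Gfpt2, of hexosamine synthesis, the tubulin folding cofactor Tbce and the DNA end resection factor Rbbp8 followed at -0.50, -0.35 and -0.42 (adjusted p of 0.0676, 0.0676 and 0.069).

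On the higher side no gene passed. The smallest p-values among genes with separated libraries belonged to Slc7a1, a transporter of cationic amino acids, the centrosomal gene Cep128 and the deubiquitinase gene Otud1. Slc7a1 was at 6.19 and 6.32 log2 CPM with rivaroxaban, 5.89 and 5.80 with dabigatran and 5.50 and 5.52 in untreated hearts (drug difference 0.41, adjusted p = 0.069). Otud1 showed the same order, with 5.89 and 6.17, 5.56 and 5.29, and 4.80 and 4.73 (0.60, adjusted p = 0.0875). In both genes the 3 groups were separate, and each drug was higher than untreated with an adjusted p under the threshold (Slc7a1 0.000481 and 0.0364, Otud1 0.000206 and 0.0113 for rivaroxaban and dabigatran). Tgfb1i1 (0.41, adjusted p = 0.176), the coronin gene Coro1c (0.29, adjusted p = 0.223) and the non-muscle myosin gene Myh9 (0.29, adjusted p = 0.223) stood further down the ranking.

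The tested transcripts of the coagulation system itself differed by -0.10 to 0.26 log2. Of 13 tested members of the list of coagulation genes and protease-activated receptors, none was called, against 0.077% of all tested genes. Their median difference was 0.05. At an unadjusted p under 0.05, 2 were higher with rivaroxaban (F3 and Tfpi), against 4.02% of all tested genes, and 0 lower, against 4.41%. F3, tissue factor, which starts clotting, was at 5.17 and 5.29 log2 CPM with rivaroxaban, 5.10 and 4.85 with dabigatran and 5.14 and 5.13 in untreated hearts (0.26, 95% interval 0.06 to 0.45, adjusted p = 0.455). Tfpi, the inhibitor of tissue factor, was at 6.81 and 6.85, 6.75 and 6.55, and 6.70 and 6.72 (0.18, 95% interval 0.03 to 0.33, adjusted p = 0.505). In both genes the rivaroxaban libraries were the highest of the 6 by a small margin.

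The thrombin and factor Xa receptors did not pass the test either. F2r was at 5.78 and 5.60 log2 CPM with rivaroxaban and 5.53 and 5.63 with dabigatran (0.11, 95% interval -0.06 to 0.28), with overlapping groups. F2rl1 and F2rl3 were much lower, at 0.97 and 0.93 and at 0.34 and -0.18 with rivaroxaban, and their intervals of -0.42 to 0.62 and -0.76 to 0.55 were accordingly wider. Thbd, thrombomodulin, which turns thrombin toward protein C, differed by 0.05 (95% interval -0.11 to 0.21), and Vwf, von Willebrand factor, by -0.03 (-0.27 to 0.20). All 5 intervals included 0.

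The circulating precursors of the drug targets are made mainly in liver. Of their genes, F2 is not analysed here, and F10 was near the floor. F10, which encodes factor X, had 22 and 11 reads with rivaroxaban, 3 and 5 with dabigatran, and 3 and 6 in untreated hearts. The rivaroxaban libraries had the most reads, but the gene lay under the level for testing, and with no filter its difference of 1.63 had an adjusted p of 0.370. Ttr, the only listed gene of the liver list, was at 0.266 to 0.546 CPM.

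**Figure D3:**
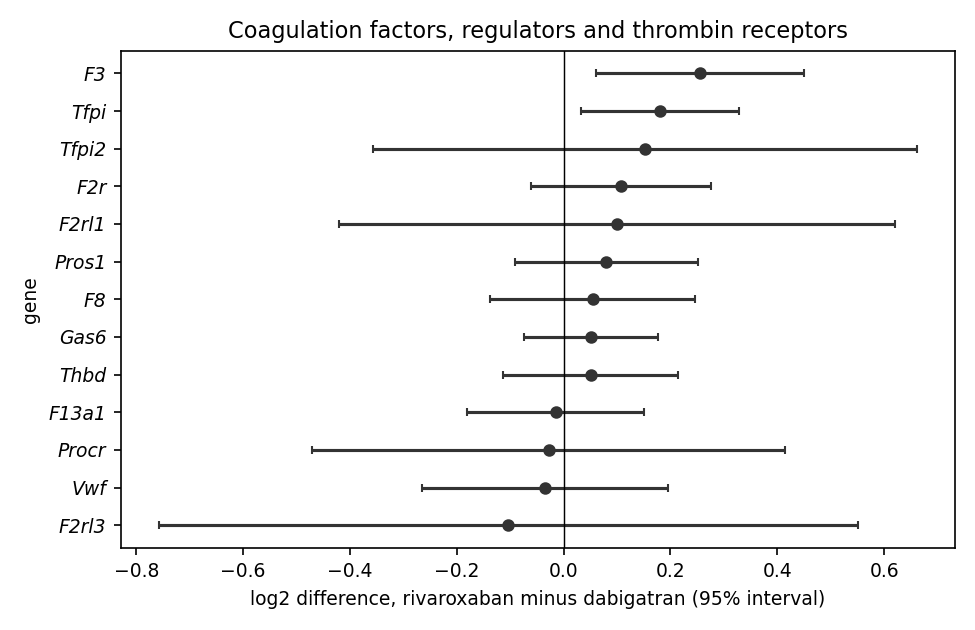
Points are log2 differences, rivaroxaban minus dabigatran (x axis), for the 13 tested genes of the coagulation list (y axis), and bars are 95% intervals from the fit over 6 libraries. The estimates run from -0.10 for F2rl3 to 0.26 for F3, and the intervals of F3 and Tfpi alone leave out 0, with neither passing the threshold adjusted over all genes.

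Across the 45 gene lists on inflammation, metabolism, stress and cell types, 673 member genes were tested and 3 were called, against 0.077% of all tested genes: Cyp26b1, Cxcl14 and Bmp6. Among the 16 tested cytokine and chemokine genes the median difference was -0.12, with Cxcl14 called and 15 not. Tgfb1 was at 6.07 and 5.92 log2 CPM with rivaroxaban and 5.75 and 5.68 with dabigatran (0.28, adjusted p = 0.336). The macrophage growth factor gene Csf1 was at 6.36 and 6.12 with rivaroxaban and 6.25 and 6.23 with dabigatran (difference 0.00). NF-kB subunits and targets had a median of 0.08 over 25 tested genes, inflammasome and toll-like receptor genes -0.04 over 15, interferon-stimulated genes 0.05 over 24 and macrophage markers -0.01 over 21, with none called. Single libraries moved medians of this size: that of the cytokines and chemokines was -0.06 without dabigatran 10, -0.07 without rivaroxaban 14 and -0.0011 without dabigatran 12, and that of the NF-kB genes was 0.02 without dabigatran 10, 0.12 without dabigatran 12 and -0.0021 without rivaroxaban 14. Tnf, Cxcl1 and Nlrp3 were under the level for testing.

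**Figure D4:**
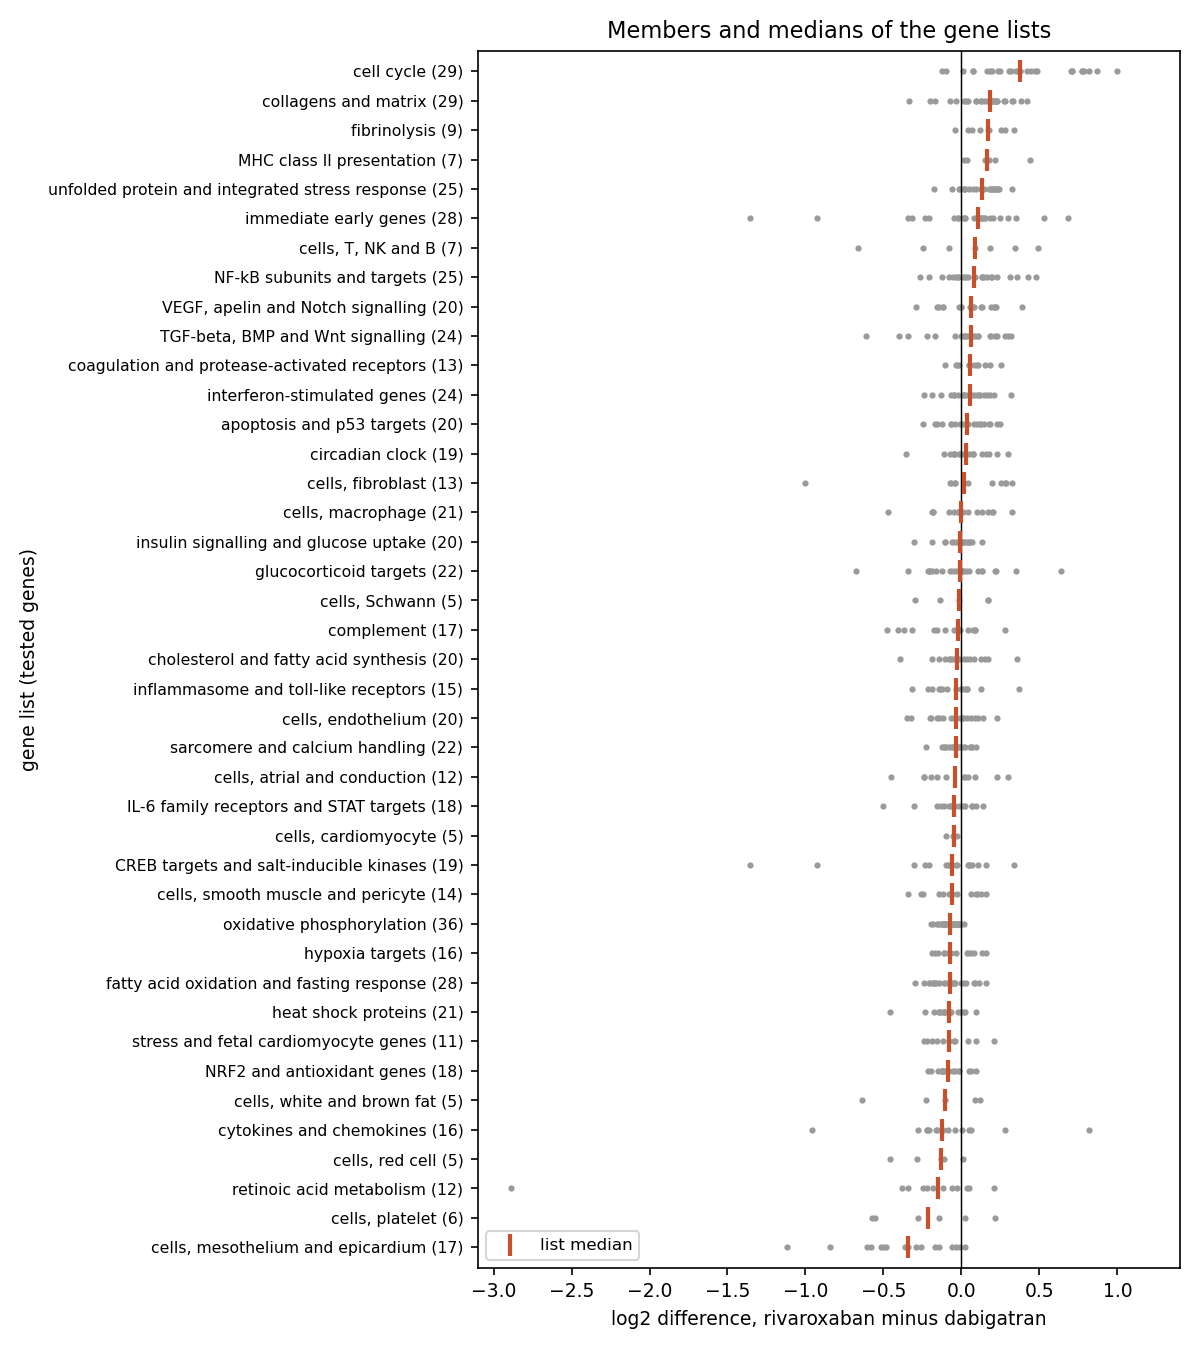
Grey points are the log2 differences, rivaroxaban minus dabigatran (x axis), of tested members of 41 gene lists with at least 5 tested genes (y axis, number tested in brackets), and red bars are list medians. The medians run from -0.34 for mesothelium to 0.37 for the cell cycle, and Cyp26b1 is the far point at the left.

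Glucocorticoid-responsive genes were higher in both drug groups than in untreated hearts. The 22 tested members had a median of 0.89 for rivaroxaban minus untreated and 0.87 for dabigatran minus untreated, with 12 and 14 called higher and 1 (Lcn2) called lower with rivaroxaban. Among all tested genes 1.47% were called higher with rivaroxaban and 1.38% with dabigatran. The direct difference between the drugs had a median of -0.01 with none called, against 0.077% of all tested genes. Single libraries changed the sign of that median. It was -0.15 without dabigatran 12, -0.15 without rivaroxaban 15, 0.06 without dabigatran 10 and 0.10 without rivaroxaban 14. Sgk1, a kinase gene induced by corticosteroids, was at 6.68 and 6.69 log2 CPM with rivaroxaban, 6.56 and 6.79 with dabigatran and 5.58 and 5.44 in untreated hearts. The drug groups overlapped and both lay more than 1 log2 unit above the untreated mean (1.18 and 1.17). Zbtb16, a further induced transcription factor gene, was at 6.30 and 6.83 with rivaroxaban, 6.49 and 5.37 with dabigatran, and 4.48 and 4.40 without drug. Its difference of 0.64 (adjusted p = 0.564) ranged from 0.08 to 1.20 when 1 library was left out.

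Among immediate early genes the 2 orphan nuclear receptor genes Nr4a1 and Nr4a3, rapid transcriptional responders to many signals, differed most. Nr4a3 was at 2.52 and 2.55 log2 CPM with rivaroxaban, 4.54 and 3.23 with dabigatran and 0.86 and 1.11 in untreated hearts. Nr4a1 was at 5.66 and 5.84, 7.19 and 6.16, and 3.85 and 4.44. The 3 groups were separate in both genes, with dabigatran library 10 far above library 12. The drug differences of -1.35 and -0.93 did not pass (adjusted p = 0.223 and 0.336), and leaving out 1 library moved them from -2.01 to -0.70 and from -1.44 to -0.41. Without dabigatran 12 both passed (adjusted p = 0.00493 for Nr4a3 and 0.0157 for Nr4a1). Each gene rose with each drug against untreated hearts, Nr4a3 by 1.55 (adjusted p = 0.0289) with rivaroxaban and 2.90 (adjusted p = 0.0013) with dabigatran. Other members went the opposite way: Ier5 was 0.30 and Klf4 0.25 higher with rivaroxaban, neither called. The list of 28 tested genes had a median of 0.11. At an unadjusted p under 0.05 there were 3 higher and 4 lower, against 4.02% and 4.41% of all tested genes.

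Cell cycle genes were mostly higher with rivaroxaban, without any single gene passing. Of 29 tested members 27 were higher and 11 had an unadjusted p under 0.05 in that direction, against 4.02% of all tested genes, with a list median of 0.37. The proliferation marker Mki67 was at 3.11 and 2.24 log2 CPM with rivaroxaban, 1.64 and 2.29 with dabigatran and 2.66 and 2.14 in untreated hearts. The drug groups overlapped, and the difference of 0.71 rested on a high rivaroxaban library 14 and a low dabigatran library 10. Foxm1 (1.56 and 0.41 against -0.45 and 0.43) and E2f1 (1.89 and 1.30 against 0.64 and 1.15) had the same 2 libraries at the ends. Cenpf, a kinetochore gene, did not: it was at 4.71 and 5.22 with rivaroxaban, 4.51 and 3.69 with dabigatran and 4.85 and 4.64 in untreated hearts (0.87, adjusted p = 0.28), with rivaroxaban 15 and dabigatran 12 at the ends. Ccnd1, cyclin D1, was separated between the drugs at 6.82 and 6.49 against 6.17 and 6.29 (0.42, adjusted p = 0.223). The summed level of the list was 442 and 381 CPM with rivaroxaban, 336 and 340.1 with dabigatran, and 372 and 377 in untreated hearts. The list median was 0.18 without rivaroxaban 14, 0.25 without dabigatran 10, 0.50 without dabigatran 12 and 0.59 without rivaroxaban 15. Rivaroxaban 14 was the higher rivaroxaban library in 25 of the 29 members and dabigatran 10 the lower dabigatran library in 22. The part of these libraries in the differences was not tested.

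Collagens and other matrix genes repeated that arrangement. Of 29 tested, 24 were higher with rivaroxaban, 10 of them at an unadjusted p under 0.05, against 4.02% of all tested genes. Lox passed that level in the lower direction, as did 4.41% of all tested genes. The median of 0.18 was 0.01 without rivaroxaban 14, 0.08 without dabigatran 10 and 0.30 without rivaroxaban 15. Rivaroxaban 14 was the higher rivaroxaban library in 27 of the 29 and dabigatran 10 the lower dabigatran library in all 29. Col1a1 was at 7.97 and 7.63 log2 CPM with rivaroxaban, 7.41 and 7.64 with dabigatran and 7.78 and 7.57 in untreated hearts. The groups overlapped, and dabigatran library 10 was again the lowest of the 6. Lox, which crosslinks collagen, had the opposite sign (2.23 and 2.15 against 2.48 and 2.57, difference -0.34).

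Genes of the unfolded protein and integrated stress responses, which include endoplasmic reticulum chaperones, had mostly positive differences. Of 25 tested, 20 were higher with rivaroxaban. Of these, 9 had an unadjusted p under 0.05, against 4.02% of all tested genes, and none passed after adjustment. The median of 0.13 became 0.05 without dabigatran 12 and 0.16 without dabigatran 10. Relative to the untreated mean the list median was 0.03 and -0.02 in the rivaroxaban libraries and -0.02 and -0.11 in the dabigatran libraries, so that rivaroxaban 15 and dabigatran 10 overlapped. Hspa5, the chaperone BiP, was at 9.60 and 9.58 log2 CPM with rivaroxaban, 9.41 and 9.40 with dabigatran and 9.72 and 9.63 in untreated hearts (0.19, adjusted p = 0.28). Dabigatran was the group below the other 2, and Hspa5 fell by 0.27 with dabigatran against untreated hearts (adjusted p = 0.0231). Pdia4 was at 5.52 and 5.44 with rivaroxaban, 5.25 and 5.24 with dabigatran, and 5.57 and 5.41 in untreated hearts.

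Genes of the respiratory chain had small differences of 1 sign. Of 36 tested, 35 were lower with rivaroxaban and 6 had an unadjusted p under 0.05 against 4.41% of all tested genes, but the median was -0.07 and the lowest -0.19. The median was -0.04 without dabigatran 10 and -0.12 without dabigatran 12. Over all 15 alternative analyses, which include other scalings, it ran from -0.12 to -0.02. Ndufb3, a complex I subunit gene, was at 7.43 and 7.39 log2 CPM with rivaroxaban, 7.61 and 7.57 with dabigatran and 7.61 and 7.56 in untreated hearts (-0.18, adjusted p = 0.328). Summed over the list the groups overlapped with untreated hearts, at 39178 and 40121 CPM with rivaroxaban, 41956 and 40325 with dabigatran, and 41529 and 39988 without drug.

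Markers of mesothelium, the sheet of cells that covers the heart, were lowest with rivaroxaban. The 17 tested markers summed to 75.4 and 85.5 CPM with rivaroxaban, 92.3 and 97.3 with dabigatran and 134 and 130.1 in untreated hearts. Between the drugs 16 were lower with rivaroxaban, 5 at an unadjusted p under 0.05, against 4.41% of all tested genes, and none after adjustment. The list median was -0.34. That median was -0.17 without rivaroxaban 14 and -0.52 without rivaroxaban 15. Msln, mesothelin, was at 2.82 and 3.15 log2 CPM with rivaroxaban, 3.38 and 3.56 with dabigatran and 4.13 and 4.29 in untreated hearts (drug difference -0.49, adjusted p = 0.28). The 3 groups were separate, and Msln fell with each drug against untreated hearts, by 1.23 with rivaroxaban (adjusted p = 0.000814) and by 0.74 with dabigatran (adjusted p = 0.0163). Krt18, a simple-epithelial keratin gene, was at -0.47 and 0.08 with rivaroxaban and 1.08 and 0.75 with dabigatran (-1.12, adjusted p = 0.223). Against untreated hearts 11 of the 17 fell with rivaroxaban, against 0.986% of all tested genes, and 3 with dabigatran, against 0.501%, and Wt1 rose with both. These 2 counts share the untreated libraries, and whether they differ was tested only by the direct comparison, which called none. The difference of these markers between the drugs had the same sign as the 10 called genes, and its part in them was not tested.

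**Figure D5:**
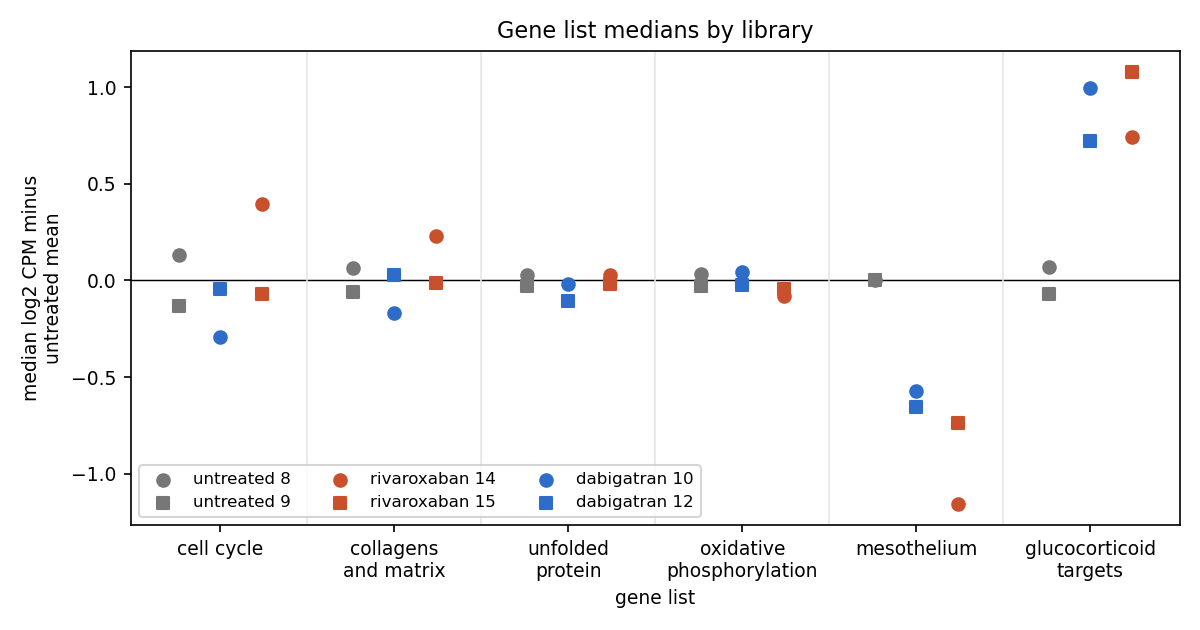
Points are the median, over the members of a gene list (x axis), of the log2 CPM in a library minus the mean of the untreated libraries (y axis), with colours for groups. The cell cycle points run from -0.29 in dabigatran 10 to 0.40 in rivaroxaban 14 with the other drug libraries between, the mesothelium points are -1.16 and -0.74 with rivaroxaban and -0.57 and -0.65 with dabigatran, and the glucocorticoid points of the drugs overlap.

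Endothelial markers were uneven. The capillary sialomucin gene Emcn was at 5.60 and 5.57 log2 CPM with rivaroxaban, 5.91 and 5.91 with dabigatran and 6.02 and 6.00 in untreated hearts (-0.32, adjusted p = 0.103), and it fell by 0.43 with rivaroxaban against untreated hearts (adjusted p = 0.00336). Aqp1, the water channel of heart endothelium, was at 8.92 and 9.03, 9.26 and 9.38, and 8.85 and 9.06 (-0.35, adjusted p = 0.172), and here it was dabigatran that rose, by 0.37 (adjusted p = 0.0362). Nos3, endothelial nitric oxide synthase, had the opposite sign, with 3.77 and 3.60 against 3.44 and 3.48 and untreated values of 3.64 and 3.60 (0.23, adjusted p = 0.575). Of the 20 tested endothelial markers 8 were higher with rivaroxaban and 12 lower. At an unadjusted p under 0.05 there were 1 higher and 4 lower, against 4.02% and 4.41% of all tested genes. The markers had a median of -0.04 and a summed level of 3008 and 2984 CPM with rivaroxaban against 3137 and 3236 with dabigatran. Complement genes had a median of -0.02 over 17 tested, and C3, the central complement protein, was at 7.24 and 7.52 with rivaroxaban, 7.90 and 7.67 with dabigatran and 7.84 and 7.79 in untreated hearts (-0.41, adjusted p = 0.223).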

How the data were processed

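RNA was measured by polyA RNA-seq with a directional library kit, per the labels' protocols. The authors deposited 1 table of TMM-normalised log2 CPM values, per the file headers, with 1 column for each of 6 libraries. The tools were STAR, Trim Galore, FastQC, bcl2fastq and edgeR, with build mm10, per the submitters' processing notes. Which program counted the reads, with which strand setting and gene models, is not given in the sources used here. Low values were whole multiples of 1 read in 100% of cases tested (tolerance 0.02 reads), and reads per gene were recovered from these steps. The lowest value a library could show was -4.04 log2 CPM.

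Group means of the deposited log2 values were fitted with limma 3.58.1 in R 4.3.3 over all 6 libraries, with a mean-variance trend and no covariate, for 12981 genes with a mean of at least 0. P-values were adjusted over all of these by Benjamini-Hochberg, with a threshold of 0.05. The untreated libraries enter the spread but not the drug difference. The fit has 3 residual degrees of freedom and 7.75 from the prior. An exact two-sided permutation test of 2 against 2 libraries cannot go below p = 0.333, so none is given. The script was tested on simulated data. Library medians lay between -0.0105 and 0.00796 log2 of their common mean, and no batch is labelled. Gene positions are from GENCODE M21 (16225 of 16229 identifiers matched) and start regions from RefSeq.

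Named genes were the called genes with an ordinary symbol, a level of at least 1 log2 CPM in a drug group and separated libraries, filled up to 15 per direction by smallest p, the members with the smallest p of each list, all listed coagulation genes, and the genes with the largest drug difference among those called against untreated hearts. Not all of them are printed, and 1 of the 10 called genes is not reported here. A few further list members given in the text (Rarg, Rarb, Aldh1a2, Csf1, Sgk1, Klf4, Mki67, Foxm1, E2f1, Col1a1, Lox, Nos3 and Wt1), the overlapping genes and the cluster on chromosome 2 were picked after their values were seen. Myh6, Spp1, S100a8, Il1b, Ttr, Tnf, Cxcl1 and Nlrp3 were also named outside the rule. The comparison, the lists and the rule were all chosen with earlier results of these data known. The lists hold 859 genes, of which 761 were listed in the table; the others are not analysed here. Alternatives were other filters, scalings, priors, a fit on recovered reads with voom, the drug libraries alone, and leaving out each library.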

Additional observations from a re-analysis of the deposited data

How the results depend on the processing

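The 10 calls between the drugs became 0 without a mean-variance trend (lowest adjusted p 0.453, with 984 genes at an unadjusted p under 0.05), 6 with only the 4 drug libraries, of which 5 were among the 10, and 1 with quantile normalization. Leaving out 1 library gave between 0 and 20 calls. With the lone remaining library of a group assumed to vary like the others, the lowest adjusted p was 0.209 without rivaroxaban 14, 0.110 without rivaroxaban 15 and 0.0900 without dabigatran 10, with 647, 841 and 740 genes at an unadjusted p under 0.05. The 20 calls without dabigatran 12 were 18 lower and 2 higher, and 5 of them were among the 10. Other filters, a prior count of 5, equal library medians, a robust prior and voom gave between 8 and 13, with 1 call higher under the robust prior. For rivaroxaban against untreated hearts the 319 calls became 0 without the trend (lowest adjusted p 0.0578) and between 61 and 410 without single libraries. For dabigatran against untreated hearts the 244 calls became 0 without the trend (lowest adjusted p 0.113), 154 with quantile normalization and between 73 and 270 without single libraries. The cause of these changes was not tested. No paired analysis was possible because the groups share no replicate numbers. With 2 libraries per group, the printed 95% intervals give the precision.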
